A study of Mus musculus with 12 samples.

Results

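The RUNX, ETS and MYB factors described here are 10 genes, Runx1, Runx2, Runx3, Cbfb, Erg, Fli1, Etv6, Ets1, Ets2 and Myb, taken by symbol from the 24028 genes counted in each of both raw count tables. All 10 were found and all 10 passed the filter on low counts in both comparisons. RNA was sequenced from 12 libraries of C57BL/6 mouse bone marrow, 3 in each of 4 groups. B220 HIGH and B220 LOW are leukemic cells sorted for a high or a low level of B220, the CD45 isoform carried by B cells and some dendritic cells, from iMLL-ENL mice, whose MLL-ENL knock-in is switched on by doxycycline, a drug they were given until acute leukemia arose. iMLL-ENL total is total bone marrow of such leukemic mice with no sort. wt LSK is the control: lineage-depleted marrow of wild type/control mice sorted by c-Kit and by Sca-1, which holds stem cells and multipotent progenitors. The labels do not say whether the control mice received doxycycline, which cells express the knock-in, or which mouse gave which library. They give 3 mice per genotype but tie no library to a mouse, so p-values measure only the spread between libraries. No normal cells other than LSK were compared, and leukemia, genotype, doxycycline and the LSK sort cannot be told apart in that contrast.

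RUNX proteins bind DNA through the Runt domain and gain affinity when they pair with CBFβ, the protein encoded by Cbfb, which does not touch DNA itself. ETS proteins share another DNA-binding domain that reads a GGAA core, and ERG, FLI1 and ETV6 are needed in stem cells and megakaryocytes. RUNX1, ERG and FLI1 share many enhancers in blood stem cells with TAL1, LYL1, LMO2 and GATA2. MYB drives the growth of immature blood cells and is required by leukemias with MLL fusions. RUNX1, CBFB, ERG, FLI1 and ETV6 are themselves partners in human fusion genes.

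The RUNX genes are known to be transcribed from a distal and a proximal promoter, and counts per gene do not tell which was used. In the RefSeq promoter table (GRCm38.p6, 250 bases before to 50 after a start site) 8 of the 10 genes matched, with 12 promoters. The upstream promoters of Runx1 and Runx3 and a promoter of Runx2 each held a pair of RUNX motifs TGTGGT on the strand opposite to the gene, with starts 8 bases apart. They are shown because the 3 RUNX genes carry the same element. Runx2 held another TGTGGT further upstream and a TGCGGT after the pair. Capitals mark the paired motif as read on the gene's strand, ACCACA, and positions count from the start site.
Runx1 (chr16:92826025-92826084, minus strand, from -10 to 50): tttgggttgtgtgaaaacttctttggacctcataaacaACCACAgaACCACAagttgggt
Runx2 (chr17:44814578-44814637, minus strand, from -10 to 50): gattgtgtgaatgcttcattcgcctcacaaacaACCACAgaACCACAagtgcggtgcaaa
Runx3 (chr4:135120488-135120547, plus strand, from -157 to -98): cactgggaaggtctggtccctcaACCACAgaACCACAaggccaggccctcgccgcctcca
The 3 windows shared an unbroken run of 18 bases, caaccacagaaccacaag, which stood in 4 promoters of the whole table. Of 32851 promoters of the same length in the table, 7 held such a pair, a share of 0.0213%, and the search for a pair was made after the motif positions were seen. A single TGTGGT or TGCGGT on either strand stood in 22.4% of all promoters and in 3 of the 12 promoters here, those printed above. The ETS motif CCGGAA stood in 14.9% of all promoters and in 1 of the 12, the proximal promoter of Runx1. The MYB motifs AACTGA or AACGGC stood in 19.3% of all promoters and in 2 of the 12. These were a promoter of Erg, with 1 AACGGC, and that of Etv6. The Etv6 promoter held 3 matches of AACTGA on the opposite strand, read here as TCAGTT in capitals. The share of all promoters with 3 matches was not counted, and binding was not measured.
Etv6 (chr6:134035640-134035724, plus strand, from -60 to 25): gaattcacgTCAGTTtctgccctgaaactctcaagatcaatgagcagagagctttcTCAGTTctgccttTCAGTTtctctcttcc

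Library totals ran from 10921521 to 20069503 counts in B220 HIGH, 13441696 to 16626820 in B220 LOW, 18001563 to 22706882 in iMLL-ENL total and 18227843 to 19607722 in wt LSK. Levels are given as CPM, counts scaled to the total of each library, with means given ± SD (n = 3). Kit, which encodes the c-Kit of the LSK sort, had 1050 to 1350 CPM in wt LSK and at most 151 CPM in any leukemic library. Ly6a, which encodes Sca-1, had 32.5, 82.1 and 45.4 CPM in wt LSK but 285 CPM in B220 HIGH replicate 2. That library stood apart from the other 2 of its group: it had 61.3 CPM over 6 NK cell markers against 1.92 and 0.961, 88.0 CPM over 10 B lineage markers against 10.9 and 13.9, and 11.8 CPM of the T cell gene Cd3e against 0.0916 and 0. Its mast cell, basophil and eosinophil markers summed to only 120 CPM, against 1223 and 1274 in replicates 1 and 3. Gata2 had 29.3 CPM there, against 334 and 389. Its mature neutrophil markers summed to 16613 CPM, against 198 and 5095. In B220 LOW the mast cell, basophil and eosinophil markers summed to 21.4 to 39.6 CPM. Ptprc, which encodes all CD45 isoforms and so does not report B220 itself, had 534, 599.8 and 553 CPM in B220 HIGH and 610.3, 241 and 431 CPM in B220 LOW, which overlapped. Pax5, a defining B cell factor, had at most 0.202 CPM in B220 HIGH. In wt LSK, replicate 2 held 1299 CPM over the B lineage markers, against 367 and 308 in the other 2. Fewer cells of a type and less RNA per cell cannot be told apart in any of these bulk libraries.

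Among the 10 genes Erg had the largest log2 change between total leukemic marrow and normal LSK. Erg, Etv6 and Runx1 fell in iMLL-ENL total, while Ets2 and Myb rose. Runx2, Runx3, Cbfb, Fli1 and Ets1 did not pass the test. The 5 calls among 10 genes stand against 30.6% of the 13811 genes tested that edgeR's quasi-likelihood test called at an adjusted p under 0.05. Of the genes tested, 15.5% were called higher and 15.1% lower, against 2 and 3 of the 10. The median log2 change of the 10 was -0.24 against 0.05 for all genes tested. In 6 of the 10, every iMLL-ENL total library lay below every wt LSK library, against 29.5% of the genes tested. In 1 of the 10, every iMLL-ENL total library lay above, against 19%. Together these 7 stand against 48.5% of the genes tested, and 7 of the 10 had an unadjusted p under 0.05, against 41.3%.

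The RUNX genes come first. Runx1, needed for the first blood stem cells of the embryo, had 388, 246 and 424 CPM in iMLL-ENL total, against 807, 718 and 725 CPM in wt LSK. The highest leukemic value was well below the lowest wt LSK value, and the 3 leukemic libraries spread more widely. The log2 change of Runx1 (NCBI gene 12394, chromosome 16, 92601466 to 92826074) was -0.94 (SE 0.24, adjusted p = 0.0190). The call was lost without wt LSK replicate 1 (adjusted p = 0.0684) or replicate 3 (0.0595), with all 12 libraries in 1 fit (0.0583) and when tested for a change beyond 2-fold (0.925), while the log2 change without a library stayed between -1.17 and -0.72.

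Runx2, the master regulator of bone formation and also a gene of plasmacytoid dendritic cells, had 539.7, 474 and 277 CPM in iMLL-ENL total, against 776, 862 and 706 CPM in wt LSK. The groups did not overlap, with replicate 3 the lowest of the leukemic libraries. The difference missed the threshold (log2 change -0.71, SE 0.25, adjusted p = 0.0575) and passed it in 8 of 14 other settings, among them DESeq2 (0.0161), limma-voom (0.0358) and leaving out iMLL-ENL total replicate 1 (0.0377). In the annotation Runx2 (NCBI gene 12393, chromosome 17, 44495987 to 44814797) has the longest genomic span of the 10. Markers of plasmacytoid dendritic cells summed to 293 to 501 CPM in iMLL-ENL total and 435 to 866 CPM in wt LSK, with 1 of 6 called lower, and their part in the Runx2 difference was not tested.

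Runx3 (NCBI gene 12399, chromosome 4, 135120645 to 135177990), a factor of CD8 T cells, NK cells and neurons, had 98.9, 102 and 68.5 CPM in iMLL-ENL total, against 119, 113 and 121 CPM in wt LSK (log2 change -0.24, SE 0.20, adjusted p = 0.406). The values of wt LSK lay within a narrow band just above those of iMLL-ENL total. Cbfb (NCBI gene 12400, chromosome 8, 105170674 to 105217989), the shared partner subunit, had 349, 269 and 314 CPM in iMLL-ENL total, against 461, 366 and 398 CPM in wt LSK (log2 change -0.25, SE 0.19, adjusted p = 0.373). For both genes the libraries did not overlap, yet the shift was little above its standard error and none of the 14 alternatives called it.

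Among the ETS genes, 2 fell, 1 rose and 2 did not pass. Erg (NCBI gene 13876, chromosome 16, 95359169 to 95586600), a stem cell factor also made by endothelium and megakaryocytes, had 82.4, 119.9 and 70.0 CPM in iMLL-ENL total, against 367, 369.8 and 319.8 CPM in wt LSK. All 3 leukemic values lay far below the wt LSK range. Erg fell by 1.81 on the log2 scale (SE 0.23, adjusted p = 7.77e-04), was called in 14 of 14 alternative settings, and was the only 1 of the 10 to pass against a fold change of at least 2 (0.00884). The 7 stroma and endothelium markers summed to 96.4 to 118 CPM in iMLL-ENL total and 194 to 228 CPM in wt LSK. Of these, 6 were tested and 4 called lower. In any wt LSK library the endothelial gene Cdh5 had at most 10.04 CPM and Kdr at most 7.95 CPM. The 11 stem cell and LSK markers summed to 161 to 271 CPM in iMLL-ENL total and 3329.6 to 3762 CPM in wt LSK. All 11 of these fell, against 15.1% of all genes tested called lower, and Mycn and Hoxb5 were at 0 in iMLL-ENL total. The list includes Kit and Ly6a, which encode the c-Kit and Sca-1 of the LSK sort. Their lower level in unsorted marrow follows from how wt LSK was sorted. The part of either marker list in the Erg difference was not tested.

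Fli1 (NCBI gene 14247, chromosome 9, 32422204 to 32543432), the closest relative of Erg, had 215, 175 and 236 CPM in iMLL-ENL total, against 205, 174 and 201 CPM in wt LSK, and the groups overlapped (log2 change 0.26, SE 0.20, adjusted p = 0.346). Etv6 (NCBI gene 14011, chromosome 6, 134035700 to 134270158), a transcriptional repressor that stem cells need in adult marrow, had 406, 341 and 529 CPM in iMLL-ENL total, against 995, 882 and 1006 CPM in wt LSK. All leukemic values lay below the wt LSK range, and replicate 3 was the highest of them. Etv6 fell by 1.02 (SE 0.22, adjusted p = 0.00949), with a call in 13 of 14 alternatives. The exception was the test against a fold change of at least 2 (0.713).

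Ets1 (NCBI gene 23871, chromosome 9, 32636241 to 32757820), a factor of T, B and NK cells, had 197, 50.1 and 87.0 CPM in iMLL-ENL total, against 33.1, 79.4 and 24.2 CPM in wt LSK. Both groups were spread, with replicate 1 high in iMLL-ENL total and replicate 2 high in wt LSK, and they overlapped. The difference was not called (log2 change 1.45, SE 0.56, adjusted p = 0.0886), but it was without wt LSK replicate 2 (log2 change 2.01, adjusted p = 0.0458) and by DESeq2 (0.0254). Without iMLL-ENL total replicate 1 the log2 change was 0.79 (0.259). In replicates 1, 2 and 3 of iMLL-ENL total, the T lineage markers summed to 38.8, 74.7 and 37.9 CPM, the B lineage markers to 19.9, 45.4 and 24.0 CPM and the NK markers to 10.9, 26.1 and 7.53 CPM. In wt LSK the sums in the same order were 74.3, 121 and 76.4 CPM for T, 367, 1299 and 308 CPM for B and 66.7, 165 and 75.9 CPM for NK markers. All 3 sums were highest in replicate 2 of either group, where Ets1 was lowest in iMLL-ENL total and highest in wt LSK. Their part in the Ets1 difference was not tested.

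Ets2 (NCBI gene 23872, chromosome 16, 95702407 to 95721049), a nuclear target of the RAS and MAP kinase pathway, had 39.1, 56.7 and 145 CPM in iMLL-ENL total, against 35.2, 28.2 and 30.9 CPM in wt LSK. Replicate 3 was far above the other 2 leukemic libraries, and replicate 1 only just above the wt LSK range. Ets2 rose by 1.52 (SE 0.47, adjusted p = 0.0406), a call that rests on few settings: it was lost in 11 of 14, with any 1 of the wt LSK replicates 1, 2 and 3 removed (0.104, 0.138 and 0.119) and without iMLL-ENL total replicate 2 (0.0547) or replicate 3 (log2 change 0.68, 0.0935). Mature neutrophil markers summed to 1279, 10675 and 12708 CPM in iMLL-ENL total, against 24.7 to 166 CPM in wt LSK, with 8 of 10 called higher, and their part in the Ets2 difference was not tested.

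Myb (NCBI gene 17863, chromosome 10, 21124930 to 21160984) had 2107, 2804 and 1089 CPM in iMLL-ENL total, against 1065, 1145 and 1012 CPM in wt LSK. Replicates 1 and 2 of the leukemic marrow lay far above wt LSK, while replicate 3 lay within the wt LSK range. Myb rose by 1.04 (SE 0.31, adjusted p = 0.0345). The call was lost without iMLL-ENL total replicate 1 or 2 (0.0627 and 0.0751), without wt LSK replicate 1, 2 or 3 (0.118, 0.106 and 0.121), with library totals in place of TMM (0.0626) and in the test for a change beyond 2-fold (0.692).

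The libraries keep no strand, so reads of a gene and its antisense partner cannot be told apart where their exons overlap. In the GENCODE annotation of GRCm38, antisense genes shared exon bases with Runx1 (106 bases), Runx2 (519), Etv6 (135) and Myb (559), and the counts of these 4 genes are uncertain over those bases. The other 6 genes shared none.

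**Figure D1:**
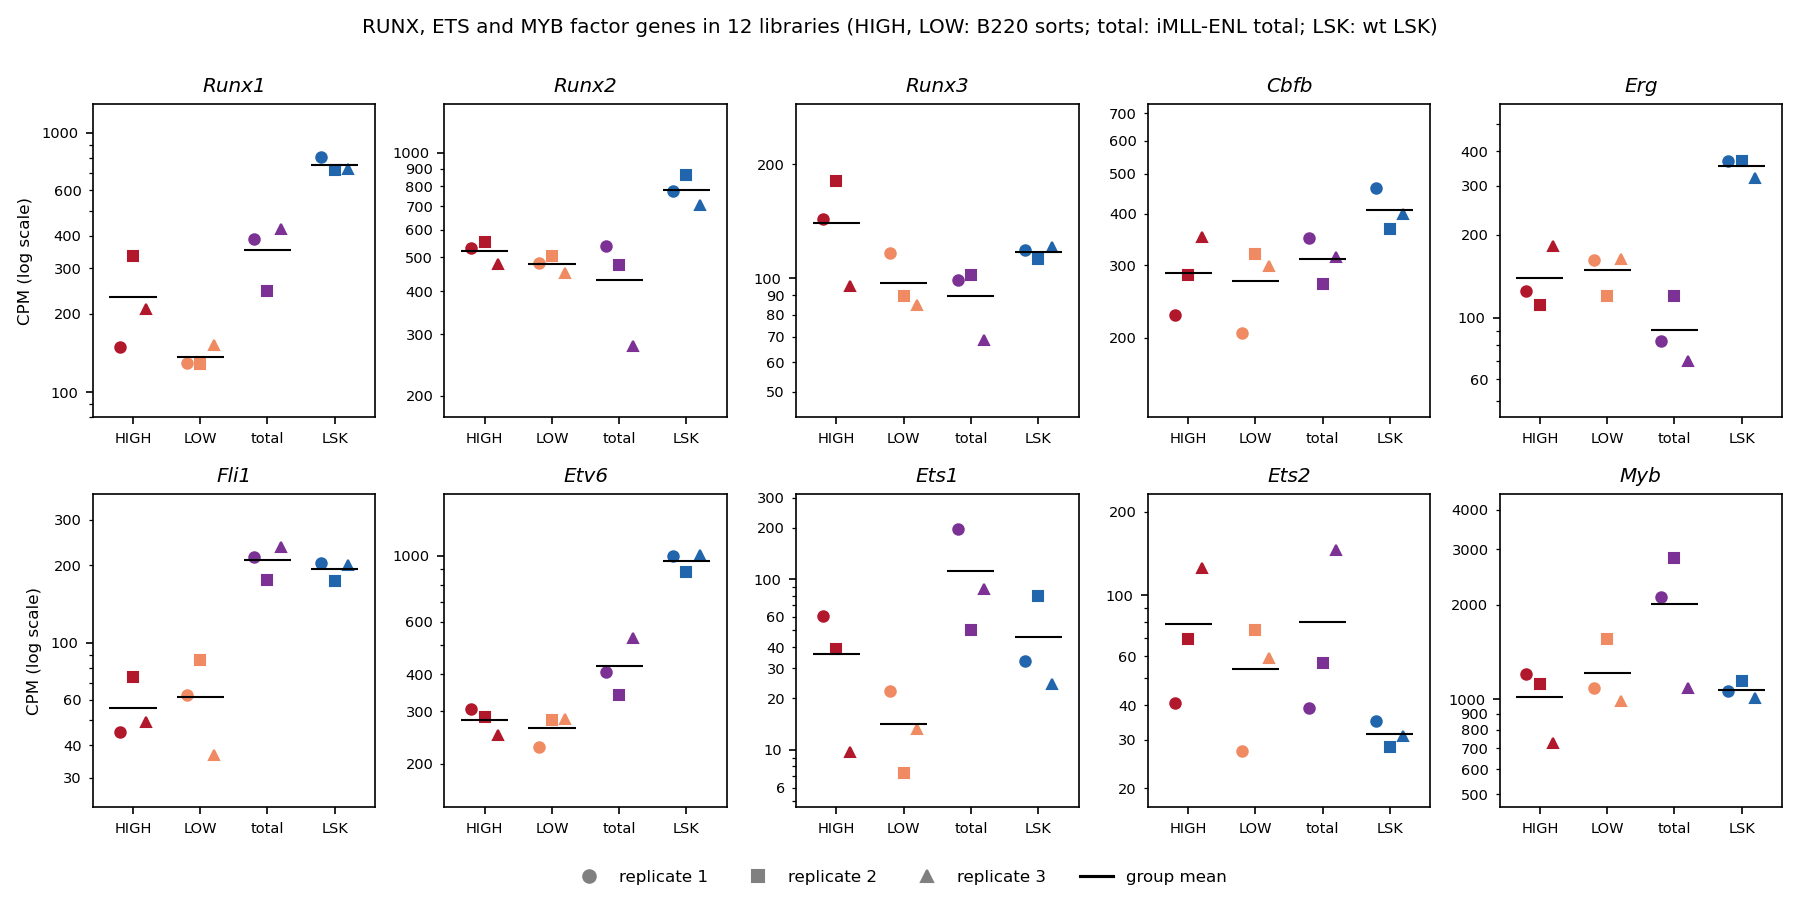
Level of each of the 10 genes in CPM on a log axis, for B220 HIGH, B220 LOW, iMLL-ENL total and wt LSK from left to right in each panel. Points are libraries, shaped by replicate number, and bars are group means. Runx1, Runx2, Cbfb, Erg and Etv6 are highest in wt LSK, and Fli1 is lower in the 6 B220 sorted libraries than in the other 6. The B220 sorts stand in another count table than the other groups.

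**Figure D2:**
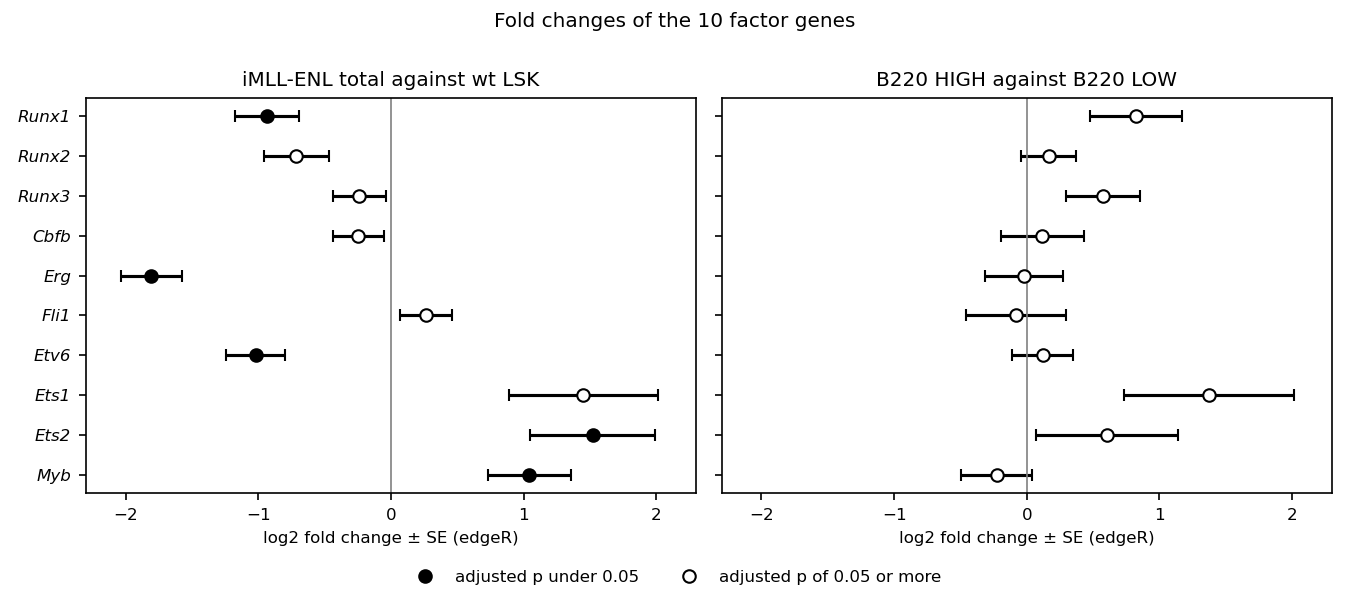
Log2 fold change with its standard error from edgeR for the 10 genes, in iMLL-ENL total over wt LSK (left) and B220 HIGH over B220 LOW (right). Filled points have an adjusted p under 0.05, and these are Runx1, Erg, Etv6, Ets2 and Myb on the left and none on the right.

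None of the 10 genes was called between B220 HIGH and B220 LOW leukemic cells by edgeR's quasi-likelihood test. It called 0% of the 12564 genes tested, with 880 genes at an unadjusted p under 0.05, while DESeq2 called 232 (1.85%), limma-voom 1, and a fit blocked on replicate number 103 of 13486 genes (0.764%). None of the 10 was called by any of them. Standard errors and adjusted p of single genes below are from the edgeR fit without a block unless stated. With the block the standard error was smaller for each of the 10, and the lowest adjusted p among them was 0.275, for Runx1. The largest positive log2 changes among the 10 were those of Ets1, Runx1, Ets2 and Runx3. In 0 of the 10 genes were the libraries of the groups apart, against 13.4% of the genes tested (6.2% higher and 7.22% lower in B220 HIGH).

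Runx1 had 149.5, 336 and 209.7 CPM in B220 HIGH, against 129.7, 128 and 152 CPM in B220 LOW (log2 change 0.82, SE 0.34, adjusted p = 0.688). B220 LOW was tight and B220 HIGH spread, with replicate 2 the highest. Runx1 was higher in B220 HIGH in 3 of 3 same-numbered libraries, with ratios of 1.15 to 2.63. So were Runx2 and Runx3, and these 3 of the 10 genes stand against 16.1% of the genes tested. Without B220 HIGH replicate 2, whose markers stood apart as given above, the log2 change was 0.47. With the replicate block it was 0.73 (adjusted p = 0.275). That library also had the highest monocyte and macrophage sum of its group, 2201 CPM against 834 and 1546. Its plasmacytoid dendritic cell sum was 585 CPM, against 223 and 414. The part of any marker list in the Runx1, Runx2 and Runx3 values was not tested.

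Runx3 had 143, 180.3 and 95.3 CPM in B220 HIGH and 116, 89.8 and 85.1 CPM in B220 LOW (log2 change 0.57, SE 0.28, adjusted p = 0.751). The same-numbered ratios were 1.12 to 2.01, and replicate 2 was again the highest. Without it the log2 change was 0.33. Runx2 had 531, 552 and 478 CPM in B220 HIGH and 481, 504 and 451 CPM in B220 LOW, with ratios of 1.06 to 1.10 (log2 change 0.16, SE 0.21, adjusted p = 0.936). Cbfb had 287 ± 62.0 CPM in B220 HIGH and 274 ± 60.8 CPM in B220 LOW (log2 change 0.12, SE 0.31, adjusted p = 0.977).

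Ets1 had 60.8, 39.1 and 9.66 CPM in B220 HIGH, against 22.1, 7.37 and 13.2 CPM in B220 LOW (log2 change 1.37, SE 0.64, adjusted p = 0.733). It was higher in B220 HIGH for numbers 1 and 2 and lower for number 3, with ratios of 0.730 to 5.31. In B220 HIGH the 8 T lineage markers summed to 28.7, 69.1 and 41.2 CPM in replicates 1, 2 and 3, against 16.1 to 29.7 CPM in B220 LOW. Their part, and that of the B and NK markers given above, in the Ets1 values was not tested. Ets2 had 40.8, 69.2 and 125 CPM in B220 HIGH and 27.3, 74.9 and 59.4 CPM in B220 LOW (log2 change 0.60, SE 0.53, adjusted p = 0.894).

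Without a block, Erg, Fli1, Etv6 and Myb had log2 changes within 1 standard error of 0. With the replicate block this held for Erg, Fli1 and Etv6 but not for Myb (log2 change -0.22, SE 0.16, adjusted p = 0.633). The values that follow are without a block. Erg had 139 ± 37.3 CPM in B220 HIGH and 148 ± 24.5 CPM in B220 LOW (log2 change -0.02, SE 0.29, adjusted p = 0.994). Fli1 had 56.0 ± 15.2 CPM in B220 HIGH and 61.8 ± 24.5 CPM in B220 LOW (log2 change -0.08, SE 0.38, adjusted p = 0.985). Etv6 had 280.5 ± 28.0 CPM in B220 HIGH and 264 ± 30.6 CPM in B220 LOW (log2 change 0.12, SE 0.23, adjusted p = 0.966), and Myb had 1016 ± 255 CPM in B220 HIGH and 1211 ± 303 CPM in B220 LOW (log2 change -0.23, SE 0.27, adjusted p = 0.932).

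Across all 4 groups the levels are a description, since the B220 sorts stand in another count table than iMLL-ENL total and wt LSK, and table and group cannot be told apart. Runx1, Runx2, Cbfb, Erg and Etv6 were lower in all 9 leukemic libraries than in all 3 wt LSK libraries. This pattern held for 16.1% of the 13174 genes with a mean of at least 1 CPM, against 5 of the 10 genes. No gene of the 10 was higher in all 9, against 9.44% of genes. Cbfb lost the pattern when scaled by TMM or in the CPM tables of the authors, and the other 4 kept it.

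Runx1 averaged 232 ± 94.999 CPM in B220 HIGH, 136 ± 13.5 CPM in B220 LOW, 353 ± 94.2 CPM in iMLL-ENL total and 750.0 ± 49.2 CPM in wt LSK. Only the step between wt LSK and iMLL-ENL total lay beyond the spread of neighbours in that order. Etv6 showed 2 steps, with 280.5 ± 28.0 CPM in B220 HIGH and 264 ± 30.6 CPM in B220 LOW, which overlapped, then 426 ± 95.2 CPM in iMLL-ENL total and 961 ± 68.8 CPM in wt LSK, each apart from its neighbour. Erg was lowest in iMLL-ENL total at 90.8 ± 26.0 CPM, overlapping B220 HIGH at 139 ± 37.3 CPM, with B220 LOW at 148 ± 24.5 CPM, and only wt LSK at 352 ± 28.1 CPM stood apart.

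Fli1 had another pattern. It had 45.2, 73.4 and 49.3 CPM in B220 HIGH and 62.9, 85.8 and 36.7 CPM in B220 LOW, against 215, 175 and 236 CPM in the libraries of iMLL-ENL total and 205, 174 and 201 CPM in wt LSK. All 6 sorted leukemic libraries lay below the other 6, as they did for Etv6 and for 5.05% of the 13174 genes. None of the 10 had all 6 sorted libraries above the other 6, against 8.87%. Ets1, Ets2, Runx3 and Myb had no step between neighbouring groups beyond the spread of their libraries. Ets1 averaged 36.5 ± 25.7 CPM in B220 HIGH, 14.2 ± 7.44 CPM in B220 LOW, 111 ± 76.2 CPM in iMLL-ENL total and 45.6 ± 29.6 CPM in wt LSK. Myb had 1016 ± 255 CPM in B220 HIGH, 1211 ± 303 CPM in B220 LOW, 2000.3 ± 863 CPM in iMLL-ENL total and 1074 ± 67.0 CPM in wt LSK.

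Levels of different genes are compared per length, as CPM per kb of the gene width in the count tables. Myb ranked first in each group, at 243 ± 60.9 CPM per kb in B220 HIGH, 289 ± 72.5 CPM per kb in B220 LOW, 478 ± 206 CPM per kb in iMLL-ENL total and 257 ± 16.0 CPM per kb in wt LSK. Ets1 ranked last in each group, at 17.3 ± 11.9 CPM per kb in iMLL-ENL total and 7.10 ± 4.62 CPM per kb in wt LSK. Etv6 ranked second in wt LSK at 169 ± 12.1 CPM per kb, and Cbfb second in the other 3 groups.

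Within the RUNX genes, Runx2 held the largest share of the summed CPM per kb in 11 of 12 libraries, the exception being iMLL-ENL total replicate 3, where Runx1 held 44.9% and Runx2 38.8%. The Runx1 share was 12.8% to 22.9% in B220 HIGH, 12.7% to 16.2% in B220 LOW, 22.3% to 44.9% in iMLL-ENL total and 34.1% to 38.5% in wt LSK. The Runx3 share was 20.3% to 27.5% in B220 HIGH, 20.2% to 25.4% in B220 LOW, 16.3% to 20.8% in iMLL-ENL total and 11.96% to 14.0% in wt LSK, so it was higher in each of the 9 leukemic libraries. Erg made up 21.4% to 38.6% of the summed Erg and Fli1 level in iMLL-ENL total, against 59.3% to 66.1% in wt LSK. In the sorts, which stand in another count table, it made up 58.2% to 77.2% in B220 HIGH and 56.2% to 80.2% in B220 LOW. Fli1 averaged 56.0 CPM in B220 HIGH and 61.8 CPM in B220 LOW, against 209 CPM in iMLL-ENL total. Erg averaged 139 and 148 CPM in these sorts, against 90.8 CPM in iMLL-ENL total.

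**Figure D3:**
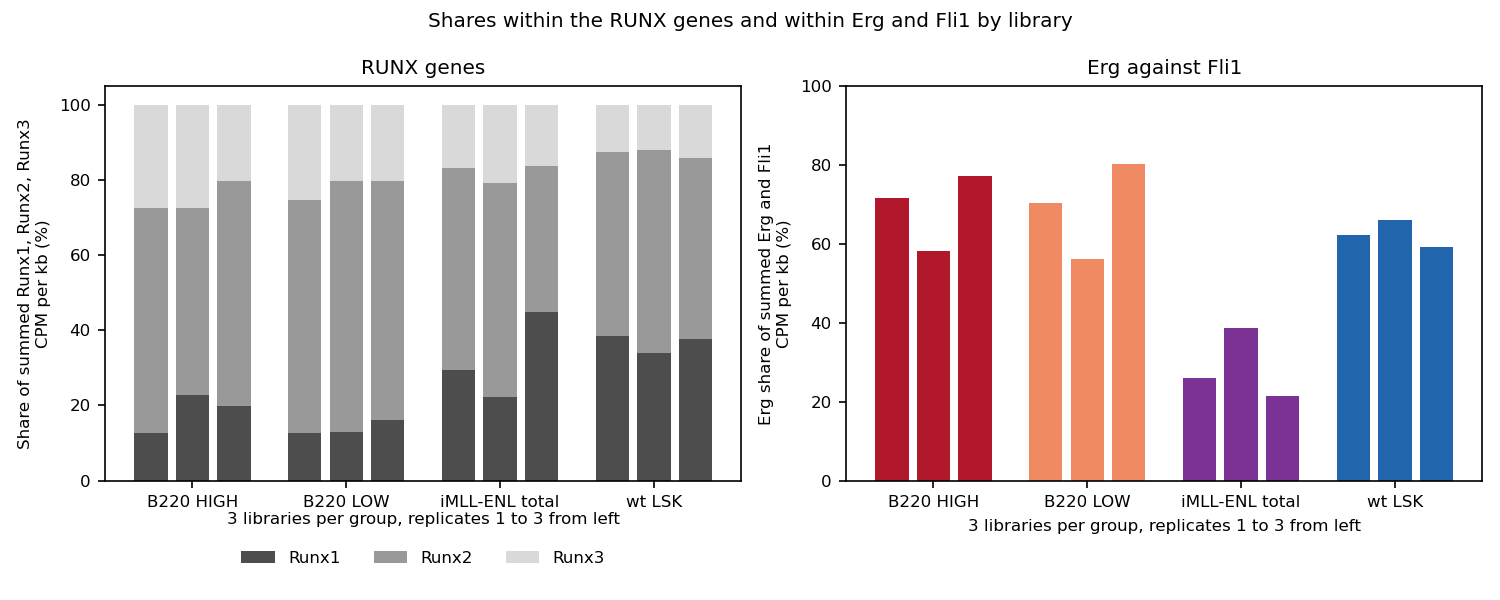
Left, share of Runx1, Runx2 and Runx3 in their summed CPM per kb, as stacked bars that reach 100%, 1 bar per library. Right, share of Erg in the summed CPM per kb of Erg and Fli1. In iMLL-ENL total Erg takes 21.4% to 38.6%, below every other library. The B220 sorts stand in another count table, so table and group cannot be told apart.

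Other genes with the most similar pattern over the 12 libraries were sought among 9518 genes, as the smallest root mean square difference of log2(CPM + 1) after each gene was centred on its own mean. For Runx1 these were Il18bp (0.326) and Zfp36l2 (0.332), for Etv6 Ttpal (0.232) and Dido1 (0.232) and for Erg Npl (0.285) and B2m (0.300), with the difference in log2 units in brackets. For Fli1 they were Rps6ka5 (0.230) and Map3k2 (0.276), for Myb Irak4 (0.251) and Mbnl1 (0.261) and for Ets2 Mfsd14b (0.420) and Pdlim5 (0.426). For Ets1 they were Acox3 (0.602) and Cd37 (0.619), and Ets1 had the largest SD of the 10 (1.35). The difference is not scaled by the spread of a gene, so it does not rank the closeness of matches between genes. Among the 10 genes, the nearest to Runx1 was Etv6 (0.388), against an SD of 0.994 for Runx1. The nearest to Runx2 was Runx3 (0.352) and the nearest to Cbfb was Runx2 (0.381), against SDs of 0.423 for Runx2 and 0.328 for Cbfb. A gene with no variation would lie at about that SD, so these pairs do not show a shared pattern. Runx2, Runx3 and Cbfb varied by an SD under 0.5 in log2 units and were not searched against other genes.

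The relatives and partners of the 10 genes were set against 30.6% of all genes called in iMLL-ENL total against wt LSK (15.5% higher and 15.1% lower). Of 21 other ETS family genes, 15 were tested, of which 7 fell, 1 rose and 7 did not pass, with a median log2 change of -0.81. Spi1, which encodes the myeloid master regulator PU.1, was the 1 that rose, with 147 ± 14.8 CPM in iMLL-ENL total and 41.2 ± 10.9 CPM in wt LSK (log2 change 2.002, SE 0.23, adjusted p = 4.33e-04). Elk3 fell to 69.0 ± 5.41 CPM in iMLL-ENL total, against 261 ± 28.6 CPM in wt LSK (log2 change -1.76, SE 0.18, adjusted p = 2.49e-04). Spic, a factor of red pulp macrophages, had 2 counts in iMLL-ENL total and 156 in wt LSK, 86.1-fold lower (95% interval from counting error alone, 23.4 to 717, adjusted p = 0.00396).

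Of the 4 partners of RUNX1, ERG and FLI1 in stem cells, Tal1, Gata2 and Lmo2 fell and Lyl1 rose, with Lmo2 close to the threshold (log2 change -0.69, SE 0.22, adjusted p = 0.0419). Tal1, a factor needed for all blood cells, had 0.241 ± 0.417 CPM in iMLL-ENL total, against 158 ± 9.99 CPM in wt LSK (log2 change -9.32, SE 0.94, adjusted p = 3.41e-04). It had 13 counts in iMLL-ENL total, all in replicate 2, against 8906 in wt LSK. The log2 change ran from -14.6 to -8.70 over 14 alternatives, so its size is not well measured. Gata2 had 16.2 ± 13.7 CPM in iMLL-ENL total, against 152 ± 5.02 CPM in wt LSK (log2 change -3.08, SE 0.65, adjusted p = 0.00904). Lyl1, the closest relative of Tal1, had 118 ± 23.4 CPM in iMLL-ENL total, against 51.7 ± 14.1 CPM in wt LSK (log2 change 1.35, SE 0.24, adjusted p = 0.00354). Of 11 RUNX cofactors, 3 fell and 8 did not pass. These were Tle1, a Groucho corepressor (log2 change -1.25, SE 0.26, adjusted p = 0.00737), Cbfa2t3 (log2 change -1.67, SE 0.44, adjusted p = 0.0225) and Runx1t1, both of the ETO corepressor family, with 6 counts of Runx1t1 in iMLL-ENL total and 117 in wt LSK (log2 change -4.11, SE 1.22, adjusted p = 0.0338). The calls of Cbfa2t3 and Runx1t1 were lost without iMLL-ENL total replicate 3 and without wt LSK replicate 1, and Runx1t1 also without iMLL-ENL total replicate 1 or wt LSK replicate 2 or 3. With all 12 libraries in 1 fit none of the 3 was called (adjusted p = 0.149 for Tle1, 0.0930 for Cbfa2t3 and 0.225 for Runx1t1). Of the 4 relatives and coactivators of MYB, 1 rose, the cell cycle gene Mybl2 (log2 change 0.96, SE 0.25, adjusted p = 0.0210), whose call was lost when iMLL-ENL total replicate 3 or any 1 wt LSK library was removed, and with all 12 libraries in 1 fit (0.0995).

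Genes listed as targets of the 3 families moved in different directions. Among all genes tested, 15.5% were called higher and 15.1% lower. Of 10 ERG and FLI1 targets tested, genes of endothelium, stem cells and platelets, 9 fell and 1 did not pass (median log2 change -3.36). Eng, which encodes endoglin, fell to 4.31 ± 0.397 CPM in iMLL-ENL total, against 102 ± 13.9 CPM in wt LSK (log2 change -4.40, SE 0.23, adjusted p = 1.43e-05), and Tek, the angiopoietin receptor gene, to 0.155 ± 0.168 CPM, against 38.4 ± 12.3 CPM in wt LSK (log2 change -7.83, SE 0.77, adjusted p = 2.31e-04). Itga2b, which encodes the platelet integrin chain CD41, had 1.08 ± 0.754 CPM in iMLL-ENL total, against 30.3 ± 5.19 CPM in wt LSK (log2 change -4.63, SE 0.62, adjusted p = 0.00102). Itga2b, Gp9, Gp1ba, Vwf and Pf4 of this list are also among the 7 megakaryocyte markers, which summed to 9.54 to 18.8 CPM in iMLL-ENL total and 73.4 to 104 CPM in wt LSK, with 5 called lower and 1 higher. The 7 stroma and endothelium markers, which include Cdh5 and Tek of this list, summed to 96.4 to 118 CPM in iMLL-ENL total and 194 to 228 CPM in wt LSK, with 4 of 6 tested called lower. The part of either marker list in the difference was not tested.

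Of 9 RUNX targets tested, 7 rose, 1 fell and 1 did not pass (median log2 change 2.23), against 15.5% of all genes tested called higher and 15.1% lower. Pf4 was the 1 that fell (log2 change -5.60, SE 0.95, adjusted p = 0.00301). The list does not separate genes that RUNX proteins activate from genes that they repress. Zbtb7b, which encodes the CD4 lineage factor ThPOK, had 42.7 ± 8.55 CPM in iMLL-ENL total, against 2.57 ± 0.0912 CPM in wt LSK (log2 change 4.21, SE 0.30, adjusted p = 5.90e-05). Gfi1, a repressor needed for neutrophils, had 204 ± 91.6 CPM in iMLL-ENL total, against 26.5 ± 5.68 CPM in wt LSK (log2 change 3.09, SE 0.37, adjusted p = 6.19e-04). Those that rose also included the granule genes Mpo and Elane, the myeloid factors Spi1, Cebpa and Gfi1, and Csf1r, the receptor gene of macrophage growth factor, all of them myeloid genes, with log2 changes of 1.06 (Cebpa) to 6.30 (Elane). Promyelocyte markers, 2 of which stand on this list, summed to 6065 to 17596 CPM in iMLL-ENL total and 1255 to 2083 CPM in wt LSK, with 5 of 5 called higher. Monocyte and macrophage markers, which include Csf1r, summed to 2170 to 3917 CPM in iMLL-ENL total and 165 to 358 CPM in wt LSK. Of these, 7 of 7 were called higher. The part of either marker list in the difference was not tested. Of 9 MYB targets, 3 rose, 4 fell and 2 did not pass. Kit, which encodes the receptor used for the LSK sort, had 123 ± 32.0 CPM in iMLL-ENL total, against 1161 ± 164 CPM in wt LSK (log2 change -3.09, SE 0.24, adjusted p = 8.59e-05). Bcl2, an anti-apoptotic gene, fell (log2 change -2.31, SE 0.19, adjusted p = 9.10e-05) and Elane, the neutrophil elastase gene, rose (log2 change 6.30, SE 0.93, adjusted p = 0.00199). In B220 HIGH against B220 LOW edgeR's test without a block called 0 genes of these lists. With the replicate block it called Mpo (log2 change -2.53, adjusted p = 4.25e-04) and Elane (log2 change -3.56, adjusted p = 0.00242), both lower in B220 HIGH. Bcl2 had 72.5 ± 22.4 CPM in B220 HIGH and 20.5 ± 6.20 CPM in B220 LOW, and was called by DESeq2 (log2 change 1.86, adjusted p = 6.44e-04) and with all 12 libraries in 1 fit (log2 change 1.86, adjusted p = 0.0181).

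**Figure D4:**
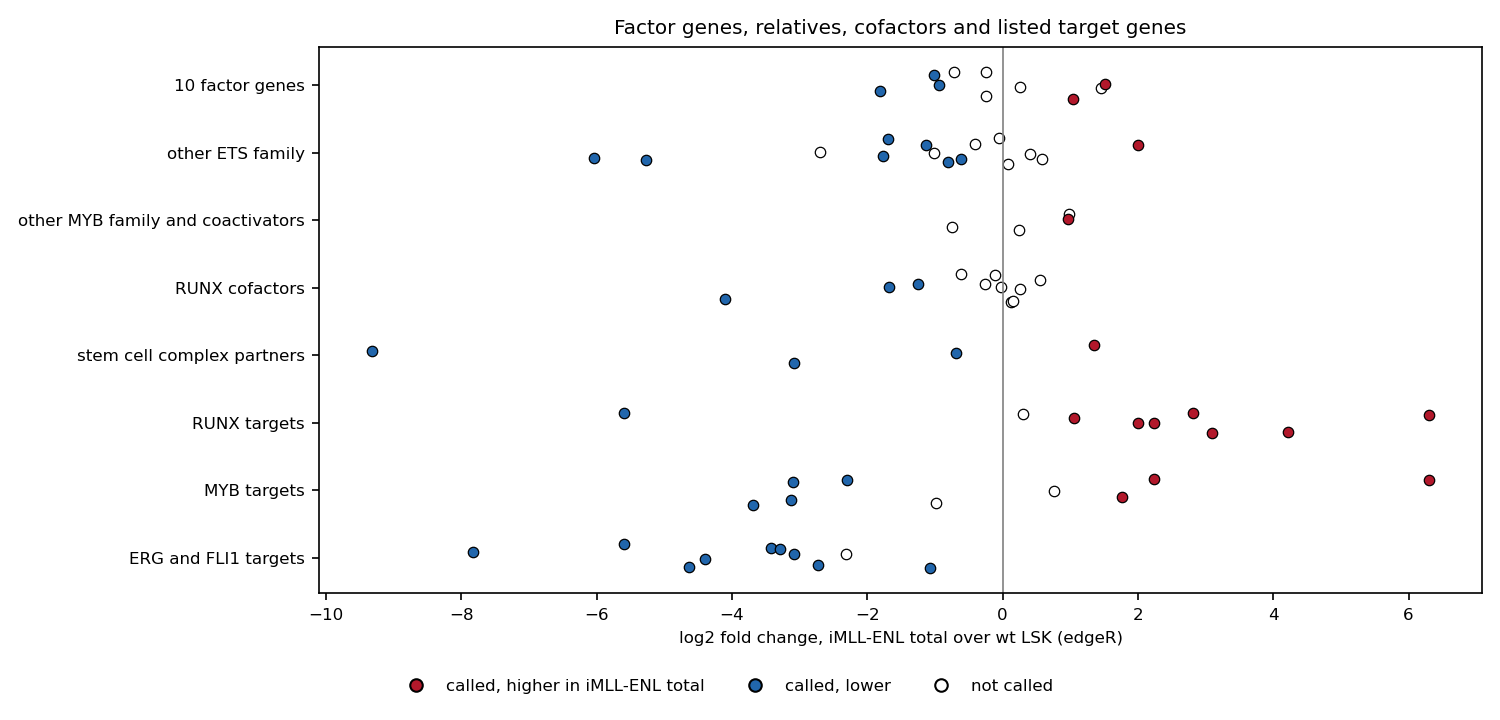
Log2 fold change in iMLL-ENL total over wt LSK for the 10 factor genes and for 7 lists of relatives, cofactors and targets, 1 point per gene tested. Filled points have an adjusted p under 0.05. All filled points among ERG and FLI1 targets lie left of 0, and 7 of the 8 filled points among RUNX targets lie right of it.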

How the data were processed

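Both deposited count tables list whole-number, unnormalized read counts under NCBI gene IDs, with B220 HIGH and B220 LOW in 1 table and iMLL-ENL total and wt LSK in the second. The CPM tables deposited beside them carry a signal, the counts divided by an effective library size, checked as a constant multiple of the counts in each library. They served only as an alternative scale. The deposited width per gene in bases gave levels per kb. Per the labels' protocols, RNA came from a PicoPure kit and libraries from an unstranded NuGen Ovation kit. The submitters' processing notes name edgeR, GRCm38 and mm10. The sources used here name no aligner or counter. Symbols and coordinates came from RefSeq on GRCm38.p6, which matched 23968 of 24028 IDs.

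Each comparison was fitted within its count table with edgeR 4.0.16 (R 4.3.3): filterByExpr with a minimum count of 10, TMM, robust quasi-likelihood F test, two-sided, Benjamini-Hochberg adjustment over all genes tested, calls at an adjusted p under 0.05. Alternatives were DESeq2 1.42.0, limma-voom (limma 3.58.1), other scalings, no filter, a replicate block, all 12 libraries in 1 fit, a fold change of at least 2, and leaving out each library. Same-numbered B220 HIGH and B220 LOW libraries deviated together from their groups (r across genes 0.397, 0.198 and 0.307). They were therefore treated as pairs in the block, which is an inference from the data that no label states. The tests were also tried on simulated counts with known changes.

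The 10 genes and all lists were chosen with earlier results of these data known. Genes named beyond the 10 are, per list, up to 3 called genes by smallest p, and per gene with an SD of at least 0.5 in log2(CPM + 1) the 2 nearest patterns. Other genes named were chosen after their values were seen. The ratio of Spic has an exact binomial interval. Intervals cover counting error only. A gene of these lists is not reported here and was left out of their counts.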

Additional observations from a re-analysis of the deposited data

How the results depend on the processing

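Of 140 values, 10 genes under 14 alternatives, in iMLL-ENL total against wt LSK 107 kept direction and side of the threshold, 23 lost the call and 10 gained one. None changed direction. The 5 calls among the 10 genes became 7 with DESeq2, 6 with its size factors, 4 with library totals or with all 12 libraries in 1 fit, 1 in the test beyond a 2-fold change, and between 2 and 5 when a library was left out (3 without iMLL-ENL total replicate 2, 2 without wt LSK replicate 1 or 3). Over all genes the 4221 calls became 2411 with all 12 libraries in 1 fit, 2047 beyond a 2-fold change, and between 2636 and 4528 without 1 library. Library totals without TMM gave 1689 higher and 2447 lower calls, against 2135 and 2086, with the median of all genes at -0.10 in place of 0.05. The replicate block gave 4117 calls, 5 of them among the 10 genes, with Runx2 gained (adjusted p = 0.0215) and Ets2 lost (0.0817). Correlations of same-numbered deviations were 0.0164, 0.16 and -0.0358, and those of unlike numbers ran from -0.128 to 0.144. No pairing was inferred from them, and the labels do not say what same-numbered libraries share.

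In B220 HIGH against B220 LOW the 0 calls became 232 with DESeq2, 1 with limma-voom, 22 with no filter, 103 with the replicate block, 31 with all 12 libraries in 1 fit, and between 0 and 96 without 1 library (96 without B220 HIGH replicate 1, 3 without B220 LOW replicate 1). None of the 10 genes was called in any of the 14, and the block changed no call among them. Of 140 values, 11 changed direction, in genes with no call. Without 1 library the log2 change was -0.10 to 0.31 for Cbfb, -0.31 to 0.13 for Erg, -0.32 to 0.27 for Fli1, -0.030 to 0.24 for Etv6 and -0.36 to 0.018 for Myb. With all 12 libraries in 1 fit it was 0.0033 for Erg, and with limma-voom 0.0096 for Fli1. Where fewer libraries entered, the fit had fewer degrees of freedom, and the cause of other changes was not tested. With 3 libraries a group, a p above the threshold does not show equal levels.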
